A study of Rattus norvegicus with 48 samples.

Results

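miR-191 and miR-425 are 2 microRNA hairpins that lie side by side in the genome, and each gives a mature form from its 5p and its 3p arm. In the rat these 4 mature forms are rno-miR-191a-5p, rno-miR-191a-3p, rno-miR-425-5p and rno-miR-425-3p. They were taken by name from a list of 645 mature miRNAs counted in blood plasma, and all 4 were present. Small RNA was sequenced in 48 plasma samples from 12 male rats with a surgical defect of the skull roof (calvaria), 12 weeks old at surgery and named Sprague-Dawley in the methods and Wistar elsewhere in the study. Each rat was bled from the tail vein shortly before the operation (baseline) and again at week 1, week 4 and week 8. The 6 strong regenerators (rats 2, 5, 17, 21, 23 and 29) and the 6 weak regenerators (rats 3, 6, 7, 16, 25 and 26) were selected for good or bad bone regeneration on microcomputed tomography. The defects had been left empty or filled with a collagen hydroxyapatite scaffold, alone or loaded with a plasmid for BMP2 and miR-590-5p or with vesicles from mesenchymal stromal cells. These treatments were unevenly spread over the groups, and the scaffold alone occurred only in strong regenerators. The part of treatment in differences between the groups was not tested. No unoperated rats were among the samples, so time after surgery and the age of the animals cannot be told apart either.

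A miRNA is cut from a hairpin precursor, and the arm that is kept in an Argonaute protein guides the repression of messenger RNAs that pair with its seed, bases 2 to 8. miR-191 and miR-425 are known as neighbours inside the host gene Dalrd3 that are transcribed together. They are abundant in platelets and other blood cells, and miR-191-5p is often used as a reference for miRNA levels in blood. Plasma carries such miRNAs in vesicles, in protein complexes and in what is left of blood cells after centrifugation.

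The 2 hairpins follow, from RefSeq on the build GRCr8, because the results turn on their arms; capitals mark the 5p and then the 3p mature form, written 5′ to 3′. Mir191 lies on the plus strand of chromosome 8 at chr8:118142627-118142717 and is 91 bases long. Mir425 lies 366 bases downstream on the same strand at chr8:118143084-118143166 and is 83 bases long.
Mir191: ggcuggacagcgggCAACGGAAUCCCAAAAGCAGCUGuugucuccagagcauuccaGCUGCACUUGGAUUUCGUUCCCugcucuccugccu
Mir425: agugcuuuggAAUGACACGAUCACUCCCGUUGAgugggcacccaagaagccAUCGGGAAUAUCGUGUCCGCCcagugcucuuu

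Both hairpins lie within the span of the protein-coding gene Dalrd3 (chr8:118142009-118147082). Its exons were not analysed here. The 4 mature forms are shown next with the seed in capitals, since the seed decides which targets a form can pair with. Their positions are chr8:118142641-118142663, chr8:118142683-118142704, chr8:118143094-118143116 and chr8:118143135-118143155, in the order printed.
rno-miR-191a-5p: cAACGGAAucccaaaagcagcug
rno-miR-191a-3p: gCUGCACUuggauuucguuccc
rno-miR-425-5p: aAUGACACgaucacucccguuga
rno-miR-425-3p: aUCGGGAAuaucguguccgcc

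The 4 seeds differ from each other. Among 693 rat mature sequences in the table, rno-miR-17-2-3p alone shared a seed with one of them, that of rno-miR-191a-3p, and no other shared the other 3 seeds. The nearest other mature sequence was at least 6 edits away from each form, further than the 1 mismatch that the counting allowed. Another miRNA of the locus, rno-miR-191b, comes from the opposite strand (Mir3555) at chr8:118142682-118142702. It overlaps rno-miR-191a-3p by 20 bases, and all 20 are complementary, so the strand of a read separates them. It had 1 to 14 reads per sample and a mean of 6.14 RPM, reads per 1000000 miRNA reads.

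The total miRNA count was 393259 to 1586398 per sample, with a median of 796311. The 12 week 8 samples stood apart from the other 36. UniSp2, a synthetic RNA added at extraction, had 91.1 to 144 reads per 1000 miRNA reads in them and 23.3 to 60.4 at baseline, week 1 and week 4. Their median total was also lower, at 609384 against 1020768 at baseline. All week 8 samples share this, so it cannot be told apart from time. Values relative to the miRNA reads (RPM and TMM scaling) are therefore given beside values relative to the spike-in. RPM divides by all miRNA reads, and TMM further adjusts that total by a factor for each sample. Differences with TMM can therefore depart from those in RPM. Each marker list of 10 platelet, 6 red blood cell, 6 leukocyte and 4 liver miRNAs was found whole, with no marker at a mean of 0. In plasma, fewer cells of a type and less RNA released per cell cannot be told apart.

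**Figure D1:**
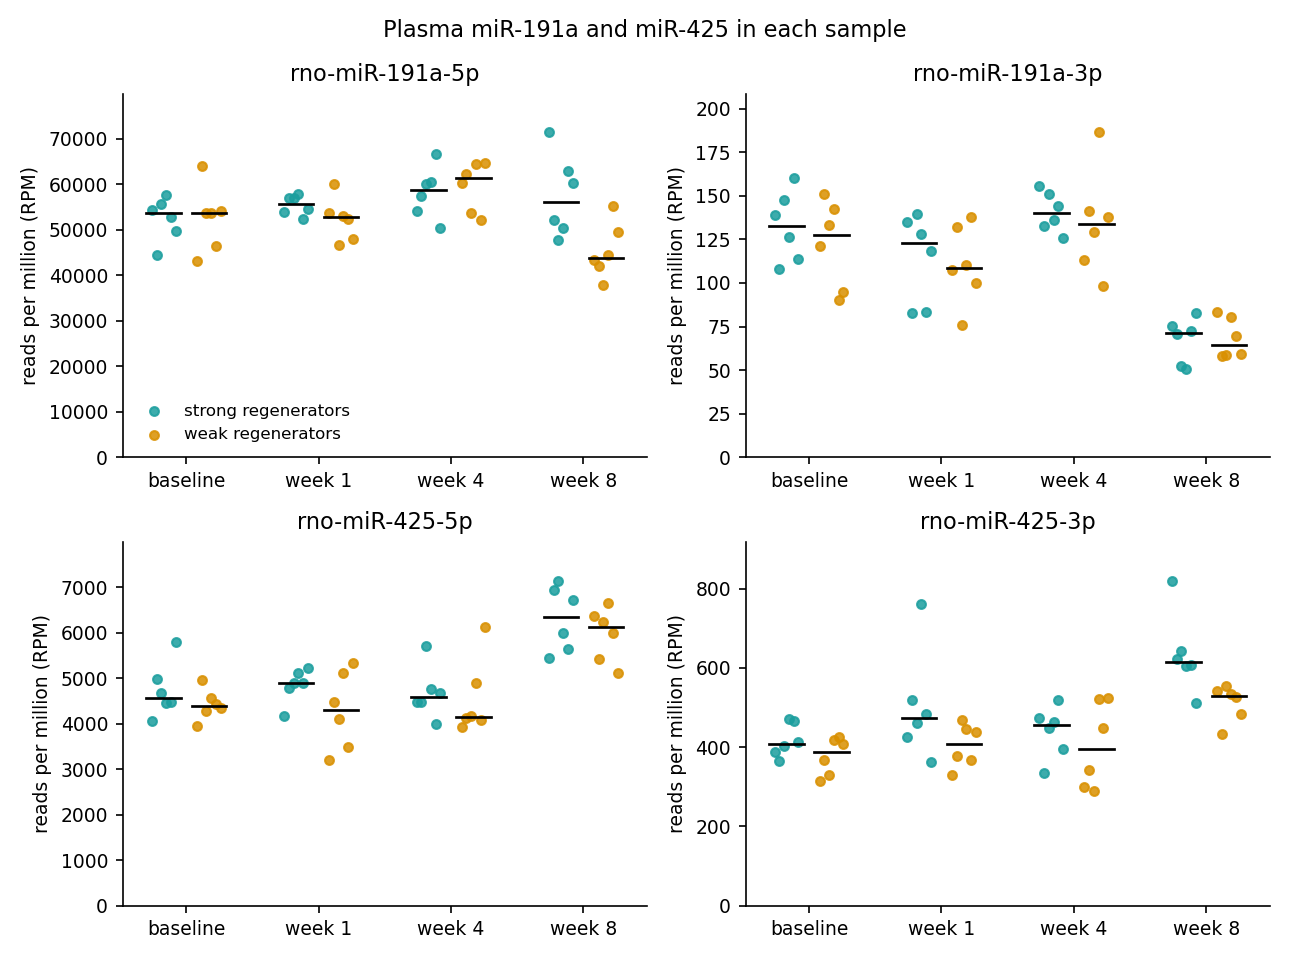
Level in RPM (reads per 1000000 miRNA reads) of the 4 mature forms in each plasma sample, by time point, with 6 strong regenerators (turquoise) and 6 weak regenerators (yellow) at each, and black lines at the group medians. All 12 samples of rno-miR-191a-3p at week 8 lie below all 12 at baseline. How many of all miRNAs separated in this way was not counted. The week 8 samples of rno-miR-191a-5p reach both below and above its baseline range, and both forms of miR-425 sit higher at week 8.

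rno-miR-191a-5p was one of the most abundant miRNAs of rat plasma, and its level varied little. It ranged from 37934 to 71357 RPM over the 48 samples with a mean of 54144 RPM, or 5.41% of all miRNA reads, and ranked 5 of 645 by mean level. rno-miR-425-5p, the main arm of the second hairpin, ranked 39 with a mean of 4978 RPM and a range of 3202 to 7141 RPM. The 3p arms were the minor forms. rno-miR-425-3p had a mean of 461 RPM (rank 110, range 289 to 819 RPM) and rno-miR-191a-3p had a mean of 111 RPM (rank 167, range 50.8 to 186 RPM), the latter from 22 to 214 reads per sample. The order of the 4 levels was the same in every sample, since their ranges did not overlap. Levels of different miRNAs also carry the ligation preference of the library preparation, so this is an order of reads and not of molecules.

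The spread of rno-miR-191a-5p over all 48 samples, an SD of 0.19 on the log2(RPM + 1) scale, was the lowest of the 310 miRNAs with a mean of at least 10 RPM, whose median SD was 0.60. Within time points its SD was 0.18, and 3 of the 310 had a lower one. rno-miR-425-5p had an SD of 0.26 over all samples, rank 17 from the lowest, and 0.19 within time points, rank 7. rno-miR-425-3p had an SD of 0.33 over all samples, rank 32 from the lowest. For rno-miR-191a-3p the SD was 0.26 within time points, rank 33, and 0.47 over all samples, rank 92. These ranks set miRNAs of very different read counts side by side. Among miRNAs within 2-fold of its mean level, 1 of 7 had a lower SD within time points than rno-miR-191a-5p. The counts were 2 of 66 for rno-miR-191a-3p, 1 of 32 for rno-miR-425-5p and 8 of 57 for rno-miR-425-3p. The spread depends on RPM being a share of all miRNA reads and was not computed relative to the spike-in.

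At week 1 none of the 4 forms passed the test against baseline. The test was edgeR's quasi-likelihood test on counts with TMM scaling, with p-values adjusted over all miRNAs kept by the filter (FDR, threshold 0.05), and it called 50 of 232 miRNAs, 21.6%. rno-miR-191a-5p ran from 43119 to 64069 RPM at baseline (median 53667) and from 46544 to 60051 RPM at week 1 (median 53717). In RPM, 6 of 12 rats were higher. The log2 difference was 0.14 with TMM (SE 0.10, edgeR FDR = 0.37) and 0.036 with library size alone (edgeR FDR = 0.80). rno-miR-425-5p had medians of 4464 and 4832 RPM, with a log2 difference of 0.089 (SE 0.088, edgeR FDR = 0.49). Neither main arm differed by more than the spread between rats. rno-miR-191a-3p had medians of 130 and 114 RPM, and 8 of 12 rats were lower at week 1 (log2 difference -0.089, SE 0.13, edgeR FDR = 0.65). rno-miR-425-3p had medians of 406 and 442 RPM, and 10 of 12 rats were higher (log2 difference 0.29, SE 0.12, edgeR FDR = 0.080). The groups overlapped for every form.

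At week 4 the result was the same under this test, which called 27 of 645 miRNAs (4.19%), 26 of them lower, and none of the 4 forms. rno-miR-191a-5p had its highest median, 60106 RPM with a range of 50368 to 66656 RPM, and 9 of 12 rats were above their own baseline. Its log2 difference from baseline was 0.28 with TMM (SE 0.10, edgeR FDR = 0.14) and 0.17 with library size alone (edgeR FDR = 0.28). DESeq2 called it (log2 0.28, DESeq2 FDR = 0.030), and the other alternatives did not. rno-miR-191a-3p had a median of 137 RPM (range 98.1 to 186 RPM), with a log2 difference of 0.21 (SE 0.13, edgeR FDR = 0.38). The log2 differences were 0.11 (SE 0.088, edgeR FDR = 0.54) for rno-miR-425-5p, whose median was 4487 RPM, and 0.19 (SE 0.12, edgeR FDR = 0.41) for rno-miR-425-3p, whose median was 448 RPM. Between week 1 and week 4 the test called 0 of 645 miRNAs (0%) although 79 had an unadjusted p under 0.05, and DESeq2 called 1 and a fit with the rat as a block 4. rno-miR-191a-3p was higher at week 4 than at week 1 in 11 of 12 rats (log2 0.30, SE 0.13, edgeR FDR = 0.40) and rno-miR-191a-5p in 10 of 12 (log2 0.14, SE 0.10, edgeR FDR = 0.62).

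At week 8 the members parted. Relative to all miRNA reads, rno-miR-191a-3p fell, both forms of miR-425 rose and rno-miR-191a-5p did not pass the test in either direction. The test called 250 of 620 miRNAs at this time point, 40.3%, with 88 higher and 162 lower, so 3 called members of 4 stand in a comparison in which a large share of all miRNAs was called.

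rno-miR-191a-3p, the minor arm of miR-191a, ran from 90.1 to 160 RPM at baseline and from 50.8 to 83.2 RPM at week 8. Every week 8 sample was below every baseline sample, in strong and weak regenerators alike. In rat 23, for example, it went from 160 to 72.7 RPM, and in rat 25, which had the lowest baseline level, from 90.1 to 69.4 RPM. The level was 1.80 times lower at week 8 (log2 -0.85, SE 0.14, edgeR FDR = 1.1e-06). It was also below every week 4 sample, and against week 4 it was 2.08 times lower (log2 -1.06, SE 0.14, edgeR FDR = 7.3e-09). How common such full separation at week 8 was among all miRNAs was not counted.

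rno-miR-425-3p ran from 315 to 471 RPM at baseline and from 434 to 819 RPM at week 8. All 12 rats were above their own baseline and 11 week 8 samples were above all baseline samples. It was 1.52 times higher (log2 0.61, SE 0.12, edgeR FDR = 4.7e-05). rno-miR-425-5p ran from 3941 to 5791 RPM at baseline and from 5116 to 7141 RPM at week 8. Again all 12 rats were higher than at baseline, and 8 week 8 samples lay above all baseline samples. The difference was 1.40 times (log2 0.49, SE 0.088, edgeR FDR = 8.4e-06). Against week 4, the log2 differences were 0.42 (SE 0.12, edgeR FDR = 0.0043) for rno-miR-425-3p and 0.38 (SE 0.088, edgeR FDR = 4.1e-04) for rno-miR-425-5p, in a comparison that called 213 of 532 miRNAs (40%).

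rno-miR-191a-5p ran from 37934 to 71357 RPM at week 8, with a median of 49923 RPM, so its range at this time point reached both below and above that at baseline. It was higher than at baseline in 6 rats and lower in 6 (log2 0.034, SE 0.10, edgeR FDR = 0.84). The sign of this value turned with library-size scaling (-0.030) and without rat 2 of the strong group (-0.038). Against week 4 it was lower in 9 of 12 rats, with a log2 difference of -0.24 (SE 0.10, edgeR FDR = 0.058). This value lay close to the threshold. It passed with the rat as a block (log2 -0.24, FDR = 0.043) and without strong rat 2 (log2 -0.34, FDR = 0.0076) or weak rat 25 (log2 -0.27, FDR = 0.041). Without strong rat 23, with TMM scaling refitted, it shrank to -0.059 (FDR = 0.69). Rat 23 itself went from 66656 RPM at week 4 to 62811 RPM at week 8. Over the fits that left out a rat, the highest values of the other forms were -0.86 (rno-miR-191a-3p), 0.56 (rno-miR-425-5p) and 0.64 (rno-miR-425-3p). With all rats these were -1.06, 0.38 and 0.42. The part of the scaling in the change without rat 23 was not tested.

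All directions at week 8 but one depended on what the counts were compared with. Relative to the UniSp2 spike-in, all 4 forms were lower at week 8 than at baseline, by log2 -1.84 for rno-miR-191a-5p, -2.74 for rno-miR-191a-3p, -1.43 for rno-miR-425-5p and -1.30 for rno-miR-425-3p, each with an edgeR FDR of 7.6e-11 or less. On that scale the median difference of the 310 more abundant miRNAs was -2.01, against -0.12 with TMM. Relative to this median the members kept their order, rno-miR-191a-3p below it and the other 3 forms above it. At week 8 the spike-in share moved in all 12 samples, and what moved it was not tested. At week 1 and week 4 the same scaling turned the sign of each positive difference, and no form passed the test at either time point with any scaling tried in edgeR.

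**Figure D2:**
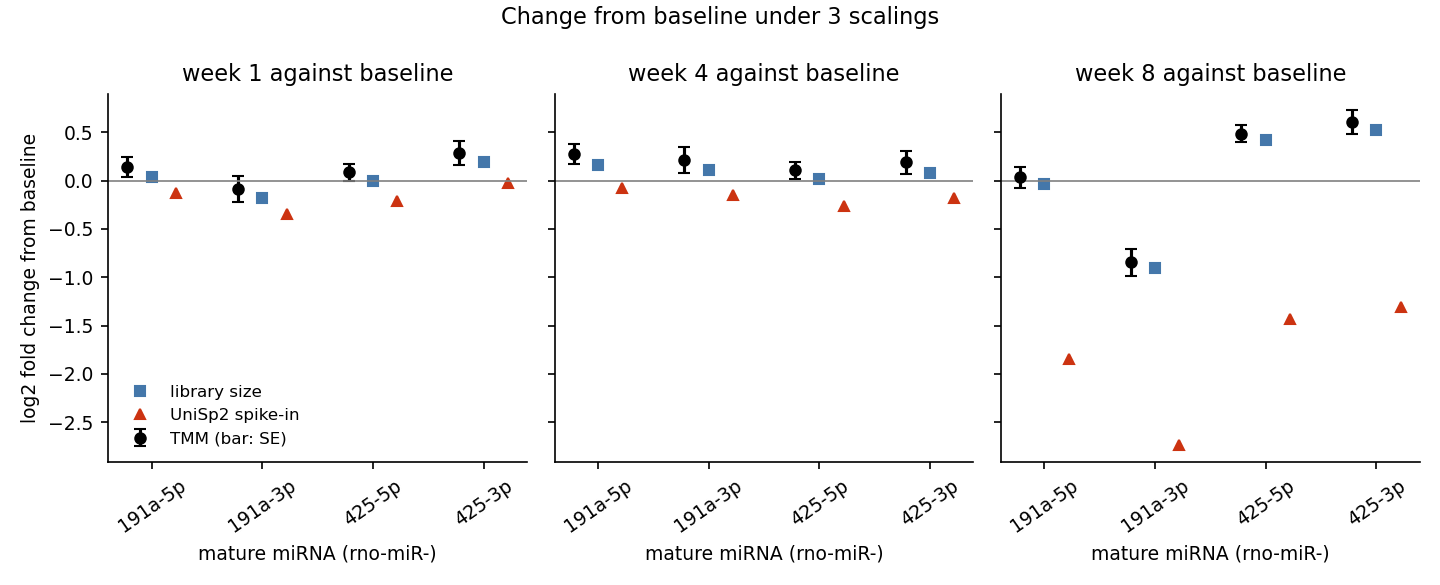
Log2 fold change of each mature form from baseline at weeks 1, 4 and 8 (12 rats at each time point), with counts scaled by TMM (black, bars are SE), by library size (blue) and by the UniSp2 spike-in (red). At week 8 TMM and library size put miR-425-5p and miR-425-3p above 0, whereas the spike-in puts all 4 forms below it, with miR-191a-3p lowest on each scale.

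Ratios within a sample do not depend on this scaling. The 5p to 3p ratio of miR-191a ran from 330 to 570 at baseline and from 522 to 992 at week 8, with medians of 408 and 767. It was higher in 12 of 12 rats, and in 10 of them the week 8 ratio lay above every baseline ratio, the other two being weak rats 3 (522) and 16 (550). The ratio was 1.81 times higher (log2 0.85, SE 0.12, limma FDR = 2.1e-08). limma was run on log2 ratios of all 146 hairpins with both arms at a mean of at least 1 RPM. It called 69 of them at week 8, 47.3%, with 31 higher and 38 lower, and miR-191a ranked 29 of 146 by increase and 68 by absolute change. An arm ratio that moved was therefore common at week 8, and that of miR-191a was near the middle in size.

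miR-425, next to it, differed. Its 5p to 3p ratio ran from 9.46 to 14.0 at baseline (median 11.3) and from 6.64 to 13.1 at week 8 (median 11.2). It was lower in 9 of 12 rats by a small amount (log2 -0.097, SE 0.11, limma FDR = 0.50). At week 1 the log2 differences of the 5p to 3p ratio were 0.23 (SE 0.12, limma FDR = 0.41) for miR-191a, higher in 9 of 12 rats, and -0.18 (SE 0.11, limma FDR = 0.44) for miR-425. At week 4 they were 0.052 (SE 0.12) and -0.057 (SE 0.11), both at a limma FDR of 0.98. limma called 0 of 146 hairpins (0%) at week 1, with 18 at an unadjusted p under 0.05, and 0 of 146 (0%) at week 4, with 5. No count model was run on the ratios.

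**Figure D3:**
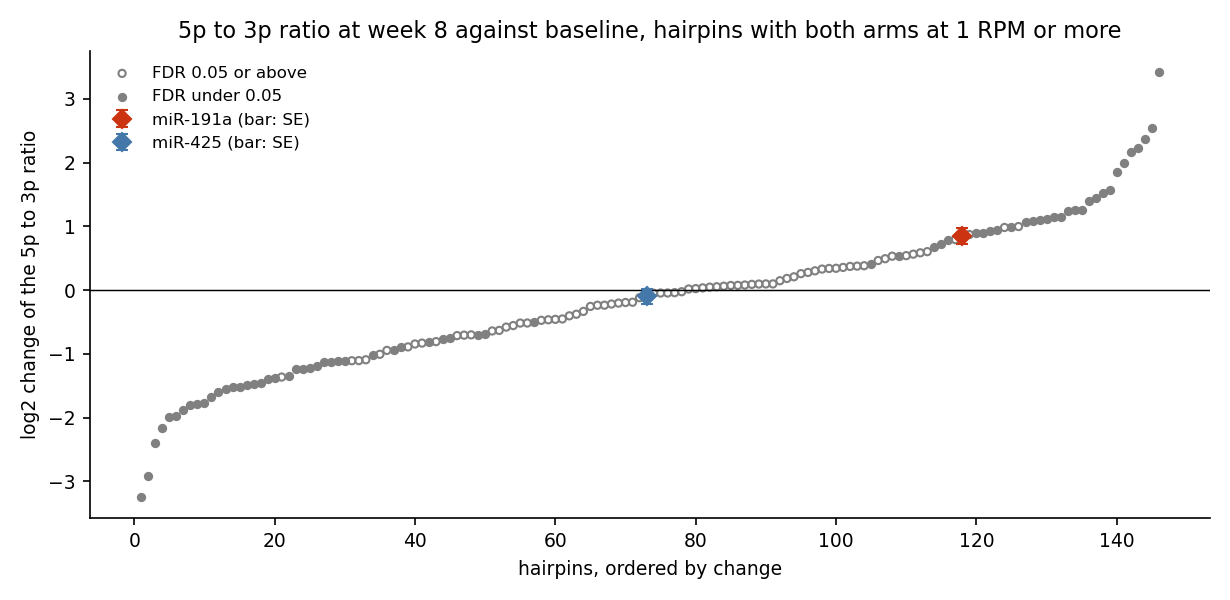
Log2 change of the 5p to 3p count ratio from baseline to week 8 for the 146 hairpins with both arms at a mean of at least 1 RPM, ordered by change, with filled points at an FDR under 0.05 (limma). miR-191a (red diamond, 0.85, bar is SE) lies among the hairpins whose ratio rose and miR-425 (blue diamond, -0.097) lies near 0.

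The ratio of the main arms of both hairpins was lower at week 8. It restates the levels of rno-miR-191a-5p and rno-miR-425-5p given above, and ratios of other miRNA pairs were not tested. Before surgery plasma held 8.58 to 13.4 reads of rno-miR-191a-5p for each read of rno-miR-425-5p, with a median of 11.9. The later medians were 11.5 (week 1), 12.8 (week 4) and 8.07 (week 8), and at week 8 the range was 6.09 to 13.1. At week 8 the ratio was lower than at baseline in 11 of 12 rats, and 7 rats were below all baseline samples. In strong rat 2 it was 13.4 at baseline and 13.1 at week 8, and in strong rat 29, the exception, 8.58 and 8.97. The log2 difference was -0.47 (SE 0.11, exact permutation test over sign flips of the 12 rats, two-sided, p = 0.0015, adjusted over 4 tests p = 0.0059). At week 1 it was 0.054 (SE 0.095, exact permutation p = 0.58, adjusted p = 0.77) and at week 4 it was 0.16 (SE 0.079, exact permutation p = 0.068, adjusted p = 0.14).

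**Figure D4:**
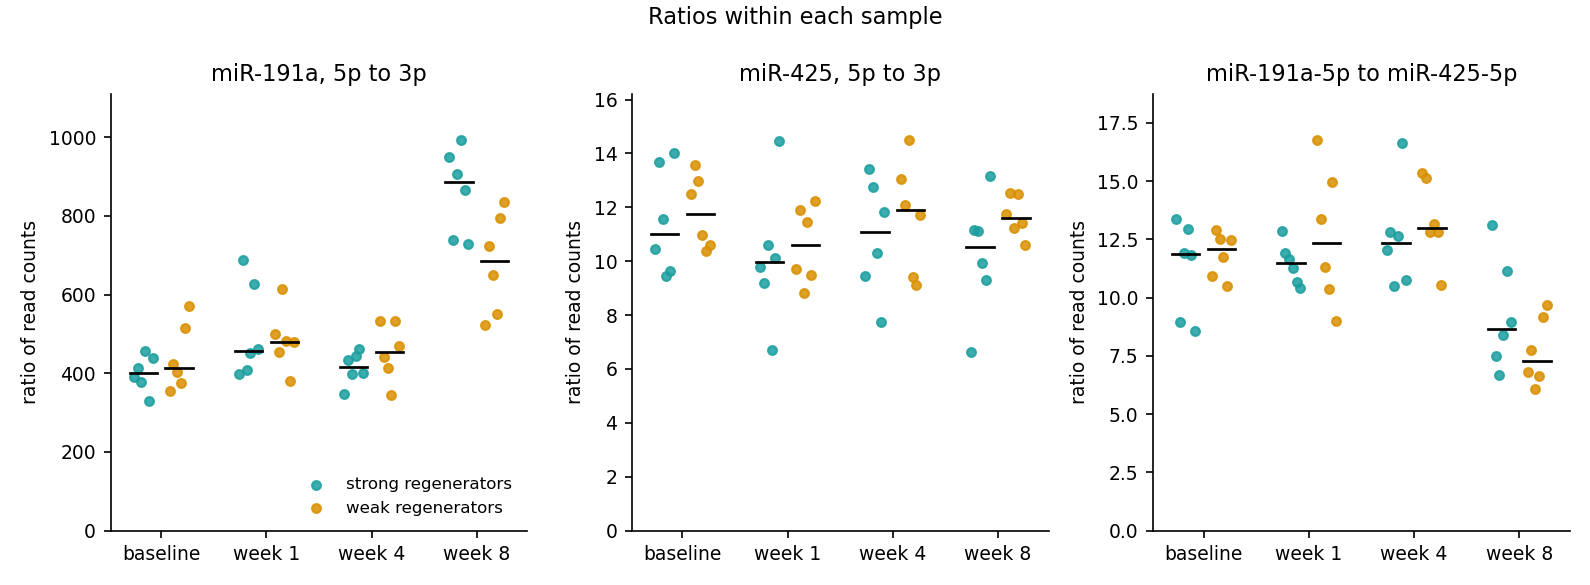
Ratios of read counts within each plasma sample by time point, for strong (turquoise) and weak (yellow) regenerators, 6 rats each, with black lines at the medians. At week 8 the 5p to 3p ratio of miR-191a is higher (522 to 992) and the ratio of miR-191a-5p to miR-425-5p is lower (6.09 to 13.1), while the 5p to 3p ratio of miR-425 overlaps its baseline range.

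The summed level of blood cell marker miRNAs moved over the same time points. From baseline to week 8 the 10 platelet miRNAs went from 7.98 to 16.1% of miRNA reads (median 10.8%) to 4.39 to 9.09% (median 6.46%). The 6 red blood cell miRNAs went from 20.0 to 30.4% to 27.2 to 38.1%, with medians of 26.1% and 32.4%. The 6 leukocyte miRNAs went from 2.24 to 4.05% to 1.73 to 2.84%, and the 4 liver miRNAs from 0.437 to 1.39% to 0.357 to 1.14%. At week 8 the test called 250 of 620 miRNAs (40.3%), 88 higher and 162 lower. Of the 10 platelet miRNAs, 6 passed the test as lower and 0 as higher (median log2 -0.63), against a median of -0.26 over all 620 tested. The most abundant of them were rno-miR-21-5p (log2 -0.91, edgeR FDR = 4.5e-06), rno-miR-150-5p (log2 -1.52, edgeR FDR = 7.2e-07) and rno-miR-223-3p (log2 0.12, edgeR FDR = 0.47). Of the 6 red blood cell miRNAs 3 were higher and 1 was lower, and the log2 differences of the most abundant ones were 1.04 for rno-miR-451-5p (edgeR FDR = 1.0e-05), -0.093 for rno-miR-16-5p (edgeR FDR = 0.56) and 0.25 for rno-miR-486 (edgeR FDR = 0.20). Of the 6 leukocyte miRNAs 2 were higher and 3 lower, with log2 differences of 0.17 for rno-miR-181a-5p (edgeR FDR = 0.18), -0.92 for rno-miR-342-3p (edgeR FDR = 1.1e-06) and -1.73 for rno-miR-146a-5p (edgeR FDR = 2.4e-07). Of the 4 liver miRNAs 1 was higher and 2 were lower, with log2 differences of -0.84 for rno-miR-192-5p (edgeR FDR = 1.1e-04), -1.18 for rno-miR-122-5p (edgeR FDR = 0.0078) and 0.66 for rno-miR-802-5p (edgeR FDR = 0.030). Several of the platelet miRNAs are also found in leukocytes and endothelial cells. The part of these cells in the members' differences was not tested.

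At week 1 the test called 50 of 232 miRNAs (21.6%), 29 higher and 21 lower. Of the 6 red blood cell miRNAs 4 passed as higher (median log2 0.46), while 1 of 10 platelet miRNAs passed as lower (median log2 -0.22). None of the 6 leukocyte miRNAs passed, and 2 of 3 tested liver miRNAs were higher. At week 4, where 27 of 645 miRNAs (4.19%) were called, none of the 4 lists had a member that passed.

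The miRNAs whose levels followed each member most closely across samples were found after subtracting the mean of each time point from log2(RPM + 1). For rno-miR-191a-5p they were rno-miR-20a-5p (Pearson r = 0.65), rno-miR-17-5p (0.59) and rno-miR-1306-5p (0.57). For rno-miR-191a-3p they were rno-miR-142-5p (0.64), rno-miR-21-5p (0.55) and rno-miR-150-5p (0.54). rno-miR-425-5p went with rno-miR-181a-1-3p (0.77), rno-miR-181a-5p (0.75) and rno-miR-150-3p (0.70), and rno-miR-425-3p with rno-miR-21-3p (0.69), rno-miR-339-5p (0.66) and rno-miR-128-3p (0.64). Of these 12, rno-miR-142-5p and rno-miR-181a-5p are in the leukocyte list and rno-miR-21-5p and rno-miR-150-5p in the platelet list. No member was among the 3 most alike of another. The arms of one hairpin had an r of 0.43 for miR-191a and 0.41 for miR-425, and the 2 main arms had an r of 0.026. These values are a description over 48 samples of 12 rats, which share libraries and depth.

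Strong and weak regenerators were compared next, to see whether the members differed with the outcome of healing. Over all 4 time points none of the 4 forms passed the test, in a comparison that called 0 of 645 miRNAs (0%). In that edgeR fit 64 miRNAs had an unadjusted p under 0.05, and DESeq2 and limma-voom also called 0. Strong regenerators differed from weak by a log2 value of 0.047 (SE 0.075, edgeR FDR = 0.90) for rno-miR-191a-5p, -0.0035 (SE 0.097, edgeR FDR = 0.997) for rno-miR-191a-3p and 0.039 (SE 0.064, edgeR FDR = 0.90) for rno-miR-425-5p. rno-miR-425-3p had the widest difference of the 4, with a log2 value of 0.18 (SE 0.085, edgeR FDR = 0.46, unadjusted p = 0.043). That fit counts the bleeds of a rat as independent, and with the rat as a random block in limma-voom the value was 0.16 (SE 0.089, FDR = 0.98, unadjusted p = 0.078).

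With 1 mean RPM per rat, rno-miR-425-3p ran from 420 to 575 in the 6 strong and from 372 to 479 in the 6 weak regenerators, with medians of 504 and 426. The difference of the rats' log2 means was 0.22 (exact permutation test over all regroupings of the rats, two-sided, unadjusted p = 0.041). For rno-miR-191a-5p the rat means were 52704 to 58666 RPM in strong and 47943 to 57136 RPM in weak regenerators, a log2 difference of 0.098 (exact permutation, unadjusted p = 0.0498). The same test gave 0.060 for rno-miR-191a-3p (exact permutation, unadjusted p = 0.49) and 0.11 for rno-miR-425-5p (exact permutation, unadjusted p = 0.16). The rat means of both groups overlapped for each form, and these p-values, which use RPM, are not adjusted for the other miRNAs.

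At single time points the groups overlapped for every form, and none of the forms passed the test. The fit called 0 of 645 miRNAs at baseline, 0 at week 1 and 0 at week 4 (0% each, with 42, 32 and 25 at an unadjusted edgeR p under 0.05) and 1 of 645 at week 8 (0.155%). For rno-miR-425-3p the log2 difference between strong and weak came to 0.14 before surgery, then to 0.25 (week 1), 0.12 (week 4) and 0.20 (week 8), each with an SE of 0.18 and an edgeR FDR of 0.84 or more. At week 8 its level was 511 to 819 RPM in strong and 434 to 554 RPM in weak regenerators, and 5 of 6 strong rats were above every weak rat. rno-miR-191a-5p was at 71357 RPM in strong rat 2, 62811 in rat 23 and 60221 in rat 29, all above the weak rats, which ran from 37934 to 55215 RPM at week 8. The other 3 strong rats lay between 47713 and 52019 RPM, and the log2 difference was 0.24 (SE 0.15, edgeR FDR = 0.80). Without the week 8 samples the difference of rno-miR-191a-5p over the remaining time points was -0.0018.

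The change from baseline did not pass the test of a difference between the groups for any form. The fit of that difference called 0 of 645 miRNAs at week 1, week 4 and week 8 (0% each, with 27, 38 and 26 at an unadjusted edgeR p under 0.05). At week 8 the difference in log2 change, strong minus weak, was 0.26 (SE 0.21) for rno-miR-191a-5p, -0.21 (SE 0.29) for rno-miR-191a-3p, -0.15 (SE 0.19) for rno-miR-425-5p and 0.058 (SE 0.25) for rno-miR-425-3p, each at an edgeR FDR of 1.00.

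**Figure D5:**
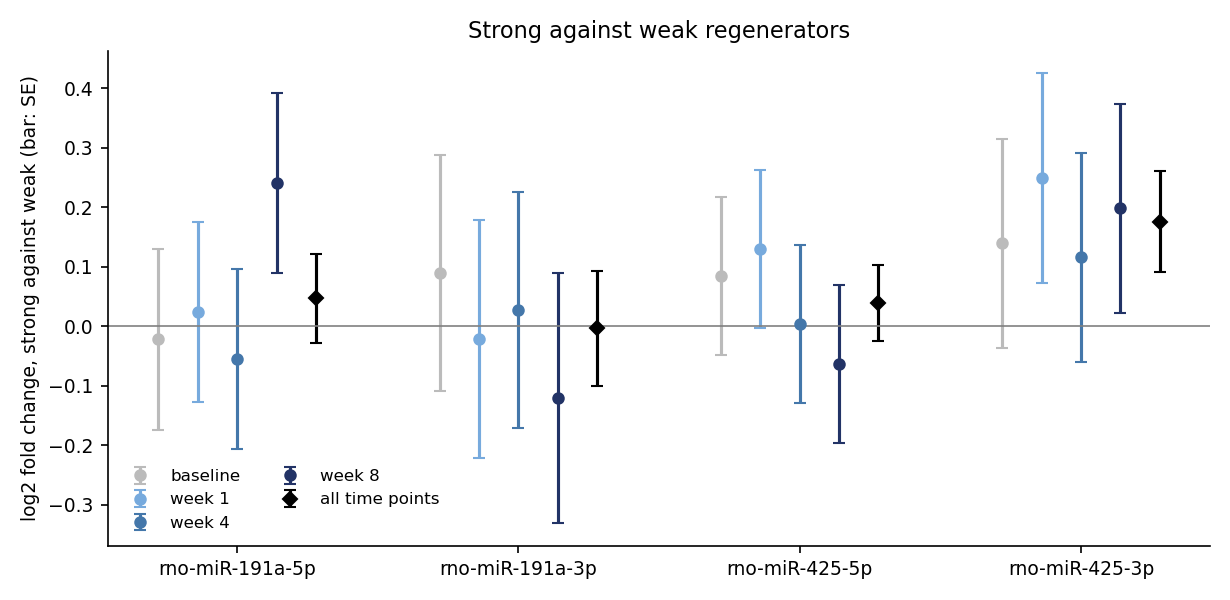
Log2 fold change of strong against weak regenerators (6 rats each) for each mature form at each time point (circles) and over all time points (black diamonds), with bars of 1 SE. rno-miR-425-3p lies above 0 at each time point (0.12 to 0.25), and no value passed the test.

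Ratios gave no called difference between the groups either. Over all time points limma called 0 of 146 hairpins (0%, 11 at an unadjusted p under 0.05), with a log2 difference of the 5p to 3p ratio of 0.038 (SE 0.088, limma FDR = 0.96) for miR-191a and -0.11 (SE 0.079, limma FDR = 0.75) for miR-425. The ratio of rno-miR-191a-5p to rno-miR-425-5p differed by -0.0079 (SE 0.085, exact permutation over all regroupings of the rats, p = 0.92). At week 8 the 5p to 3p ratio of miR-191a was 727 to 992 in strong and 522 to 835 in weak regenerators (medians 886 and 686). A limma test of week 8 alone, chosen after seeing these values, gave a log2 difference of 0.36 (SE 0.17, limma FDR = 0.57), in a comparison that called 0 of 146 hairpins (0%, 9 at an unadjusted p under 0.05). The difference in its change from baseline was 0.49 (SE 0.24, limma FDR = 0.92), again with 0 of 146 called (0%, 6 at an unadjusted p under 0.05).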

How the data were processed

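Plasma RNA was extracted with a miRNeasy kit and a spike-in mix, libraries were made by single-adapter ligation (RealSeq), and the authors deposited whole-number read counts of 645 mature miRNAs and 3 spike-ins in 48 samples. Per the study's methods, reads were trimmed, mapped to the rat genome with bowtie and counted with miRDeep2 against rat miRBase. The submitters' processing notes name cutadapt 3.3, Bowtie 1.3.0 and the human build GRCh38.p12, which the methods do not name. The labels and the methods give different plasma volumes per extraction. Baseline labels leave regeneration unknown, so baseline samples were grouped through their rat. Every column of samples was used.

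The counts were tested with edgeR 4.0.16 (quasi-likelihood with the version 3 method, TMM, DESeq2's independent filter on mean abundance, Benjamini-Hochberg FDR 0.05) in R 4.3.3, over all miRNAs, without a term for the rat. limma 3.58.1 was run on log2 5p to 3p ratios with a pseudocount of 0.5, and exact permutation tests with numpy 2.4.6 in Python 3.11.15. RPM is a count per 1000000 miRNA reads. The filter kept miRNAs above 36.65 RPM at week 1 and fewer or none were dropped in the other comparisons. The tests were checked on simulated data. DESeq2 1.42.0, limma-voom, other scalings and filters, and leaving out each rat were alternatives. The 48 samples are repeated bleeds of 12 rats, matched by the animal label. Pairing was used in the counts of rats, the sign-flip test and the fits with the rat as a block. The main edgeR and limma tests were unpaired. Samples of one rat correlated at 0.11 on average and those of different rats at -0.029, with 6 of 12 rats over 0.1. No pair among 1128 agreed within sampling noise. Treatment labels of single rats were not used here.

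The members and the marker lists were chosen with earlier results of these data known. Named miRNAs are the 4 members, the 3 most abundant of a marker list, and for each member the 3 miRNAs with the highest Pearson r, among those with a mean of at least 10 RPM. Sequences and positions are from RefSeq (GRCr8), where all 4 members and rno-miR-191b were found.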

Additional observations from a re-analysis of the deposited data

Results flagged for a closer look

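The ratio of miR-191a-5p to miR-425-5p reads was 16.7 in strong rat 23 at week 4, while the other 5 strong regenerators ran from 10.5 to 12.8 at that time point. The gap to the nearest sample was 0.627 of the group's range, just past Dixon's critical value of 0.625 for 6 samples. In all, 56 groups of samples were looked at in this way, and chance flags about 1 group in 20. At the other time points the ratio in rat 23 was 11.8 at baseline, 10.7 at week 1 and 11.1 at week 8. The weak regenerators ran from 10.5 to 15.4 at week 4, and weak rat 3 was at 16.8 at week 1.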

How the results depend on the processing

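The call at week 8 against baseline held for miR-191a-3p in all 23 alternatives and for miR-425-5p and miR-425-3p in 22 of 23, while with UniSp2 scaling both forms of miR-425 were called as lower (log2 -1.43 and -1.30, and against week 4 -1.17 and -1.13). On that scale miR-191a-5p was at -1.84 against baseline and -1.77 against week 4. At week 1 the scaling gave -0.12 for miR-191a-5p, -0.21 for miR-425-5p and -0.019 for miR-425-3p. At week 4 it gave -0.077, -0.15, -0.27 and -0.18 for miR-191a-5p, miR-191a-3p, miR-425-5p and miR-425-3p, and between weeks 1 and 4 -0.061 for miR-425-5p. Its counts of called miRNAs were 61 at week 4, 499 at week 8 and 468 for week 8 against week 4, where TMM gave 27, 250 and 213. The cause of these shifts was not tested.

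Library size alone gave -0.0032 for miR-425-5p at week 1 and -0.030 for miR-191a-5p at week 8, both against baseline, and 32 calls at week 1 against baseline in place of 50. For strong against weak it gave 0.045 for miR-191a-3p at week 1 and 0.081 for miR-425-5p at week 8. With no filter 25 miRNAs were called at week 1 against baseline. DESeq2 called miR-191a-5p at week 4 (0.28) and 1 miRNA between weeks 1 and 4, where a fit with the rat as a block called 4. miR-191a-5p at week 8 against week 4 passed with filterByExpr (-0.24), limma-voom (-0.24) and the block (-0.24). A pseudocount of 1 called 1 hairpin at week 4. The total without red blood cell miRNAs gave -0.0037 for miR-425-5p between weeks 1 and 4.

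Strong against weak miR-191a-3p was close to 0 and turned sign, to 0.055 with library size, 0.060 with exact permutation over rats, 0.047 without week 8, 0.026 without red blood cell miRNAs, 0.017 with DESeq2, 0.013 with RLE, 0.010 with limma-voom, 0.011 with the rat as a random block and 0.012 with summed samples. miR-191a-5p was at -0.0018 without week 8. Exact permutation, unadjusted, passed the threshold for miR-191a-5p (0.098) and miR-425-3p (0.22). The paired fit with the rat as a block changed no other call of a member.

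Leaving out each rat moved the calls at week 1 from 24 to 47, between weeks 1 and 4 from 0 to 1 and for strong against weak from 0 to 2. It moved miR-191a-5p at week 8 from -0.038 to 0.17 and against week 4 from -0.34 to -0.059, and miR-425-5p between weeks 1 and 4 from -0.014 to 0.028. For strong against weak the ranges were -0.058 to 0.061 for miR-191a-3p, -0.012 to 0.073 for miR-425-5p, -0.0051 to 0.076 for the miR-191a arm ratio and -0.054 to 0.028 for the ratio of main arms.

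The counts limit miR-191a-3p most, with 22 to 82 reads per sample at week 8. The week 8 samples, all high in spike-in share, cannot be separated from time, and 6 rats a group with SEs of 0.13 to 0.21 at single time points leave small differences undetectable.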

Other observations

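rno-miR-191b, the antisense neighbour of rno-miR-191a-3p, gave few reads, and its level did not pass a test. At week 8 it had 1 to 5 reads in the strong regenerators (1.09 to 5.44 RPM, median 3.87) and 2 to 7 reads in the weak regenerators (3.36 to 9.88 RPM, median 6.14). The log2 difference was -1.04 (SE 0.48, edgeR FDR = 0.75), with overlapping groups. From baseline to week 8, where rno-miR-191a-3p fell, the log2 difference of rno-miR-191b was -0.065 (SE 0.33, edgeR FDR = 0.91), at medians of 4.82 and 5.07 RPM.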
